A study of Mus musculus with 10 samples.

Results

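The genes described here are 40 genes of glutathione synthesis, glutathione conjugation, peroxide removal and their transcriptional control, chosen by symbol from the 23420 genes counted in each of 10 mouse liver RNA-seq libraries. All 40 were found in the count files. The series compares 5 livers of mice that went 48 hours without food but with water with 5 livers of mice kept on standard chow. All mice were C57BL/6 males aged 4 months, no genotype or agent other than the diet differs between the groups in the labels, and each library is a separate mouse, numbered 1 to 5 within its group. The labels count the mice in pairs without saying what pairs them. Whole liver and a single duration were sampled in 1 sex, so hepatocytes and the other cells of the organ were measured together.

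Glutathione is a tripeptide that liver cells make in large amounts and use as an electron donor. Glutathione peroxidases reduce peroxides with it, glutathione S-transferases (GSTs) couple it to electrophiles, and glutathione reductase restores it with electrons from NADPH. The thioredoxin system and the peroxiredoxins form a parallel branch that also draws on NADPH. Many of these genes carry antioxidant response elements, at which the transcription factor NRF2, encoded by Nfe2l2, binds together with small MAF proteins. KEAP1 holds NRF2 in the cytosol and directs its degradation until electrophiles or oxidants modify KEAP1.

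The core of that element, TGACNNNGC on either strand, was searched in the 250 bases before each annotated start in RefSeq's promoter table (assembly GRCm38.p6). The table held 35 of the 40 members. Gclc, Gsr, Gsta4, Gstt2 and Prdx6 had no entry and were not searched, and all of them but Gsta4 passed the expression test. Of the 35 held, 7 (20.0%) carried the core, namely Gclm, Gsta3, Txnrd1, Prdx1, Mgst1, Sod1 and Nfe2l2. Of all 27025 genes in the table, 3112 (11.5%) carried it. Genes with several starts had several windows, and per window the shares were 15.2% of 46 for the members and 10.2% of 32851 for all genes. A match describes letters in this window and is not a measured binding site. The sequences below are shown for the 3 motif-bearing members that passed the expression test, Gclm, Gsta3 and Txnrd1, and for Prdx1, whose core overlaps the AP-1 letters TGACTCA. Each is printed 5′ to 3′ along the strand of the gene, 41 bases long, with the core in capitals. Overlap of these stretches with exons of other transcripts was not tested. In Gclm, Txnrd1 and Prdx1 the core lies on the opposite strand, so the capitals read as its reverse complement.
Gclm, chr3:122245407-122245447, plus strand, core 125 bases before the start: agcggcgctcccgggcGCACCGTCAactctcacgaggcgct
Gsta3, chr1:21240448-21240488, plus strand, core 112 bases before the start: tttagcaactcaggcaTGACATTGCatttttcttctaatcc
Txnrd1, chr10:82859098-82859138, plus strand, core 83 bases before 1 of its 3 RefSeq starts: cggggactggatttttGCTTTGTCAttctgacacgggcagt
Prdx1, chr4:116685450-116685490, plus strand, core 124 bases before the start: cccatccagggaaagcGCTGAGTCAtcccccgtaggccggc
In the expression data Gclm and Gsta3 fell, Txnrd1 rose, and Prdx1, Mgst1, Sod1 and Nfe2l2 did not pass the test.

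Counting depth was similar in both groups, with 18.2 to 28.1 M (1e6) gene reads in starved libraries and 23.0 to 29.9 M in fed libraries. On the first principal component of all genes, which held 65.1% of the variance, starved libraries 2 and 4 lay at 90.1 and 63.9, while starved libraries 1, 3 and 5 lay between 17.7 and 18.9. Both libraries stayed in the analysis, and log2 fold changes without them are given beside the results. Hepatocyte markers summed to 106210 to 158317 CPM in starved libraries and 86070 to 128990 CPM in fed libraries. Markers of other cells also differed, where 18.6% of all tested genes rose and 20.0% fell. Kupffer cell markers, 10 of 11 of which fell, summed to 223 to 429 CPM in starved and 503 to 805 CPM in fed libraries, and the 3 tested red blood cell markers fell, with sums of 8.60 to 26.3 CPM in starved and 28.6 to 47.7 CPM in fed libraries and 4 globin genes listed at 0 in all libraries. The 3 tested neutrophil markers rose, with sums of 2.84 to 22.2 CPM in starved and 1.86 to 3.65 CPM in fed libraries. In bulk tissue, fewer cells of a type and less RNA per cell cannot be told apart, and the part of these cell types in the values below was not tested.

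Starved livers carried less mRNA for both subunits of the first enzyme of glutathione synthesis, for several GSTs and for catalase, and more mRNA for glutathione reductase, cytosolic thioredoxin reductase and sulfiredoxin. Levels are CPM, read counts relative to a library size that edgeR's trimmed mean method (TMM) scaled, fold changes are starved over fed on the log2 scale, and a gene is called at an adjusted p under 0.05 in the quasi-likelihood test of edgeR after Benjamini-Hochberg adjustment for all 12796 genes tested. Of the 39 members with enough reads to test, 5 rose (12.8%), against 18.6% of all tested genes, and 11 fell (28.2%), against 20.0% of all tested genes. Called in either direction were 16 members (41.0%), close to the background of 38.6%, so the share of members called does not set them apart from genes at large. The median log2 fold change of the 39 members was -0.31, and that of all tested genes was 0.0035. Gsta1, an alpha-class GST, was the member left untested, with 0 to 6 reads per library. The groups did not overlap in 3 members that were higher in starved livers and in 12 that were lower, where 13.2% and 16.7% of all tested genes showed such separation. When starved libraries 2 and 4 were left out, 9 members rose and 12 fell (20.2% and 20.7% of all genes then tested), with a median of -0.056. All 16 calls were kept, and Gpx4, Nqo1, Gstk1 and Prdx5 were called higher and Gstm4 lower in addition. Starved libraries 2 and 4 both lay below libraries 1, 3 and 5 in 28 of the 39 members, and in 25.5% of all tested genes. They both lay above them in 4 members, and in 24.7% of all tested genes. With scaling by library totals alone the median of all genes was -0.15, and 2 members rose and 14 fell, against 11.6% and 27.3% of all genes.

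**Figure D1:**
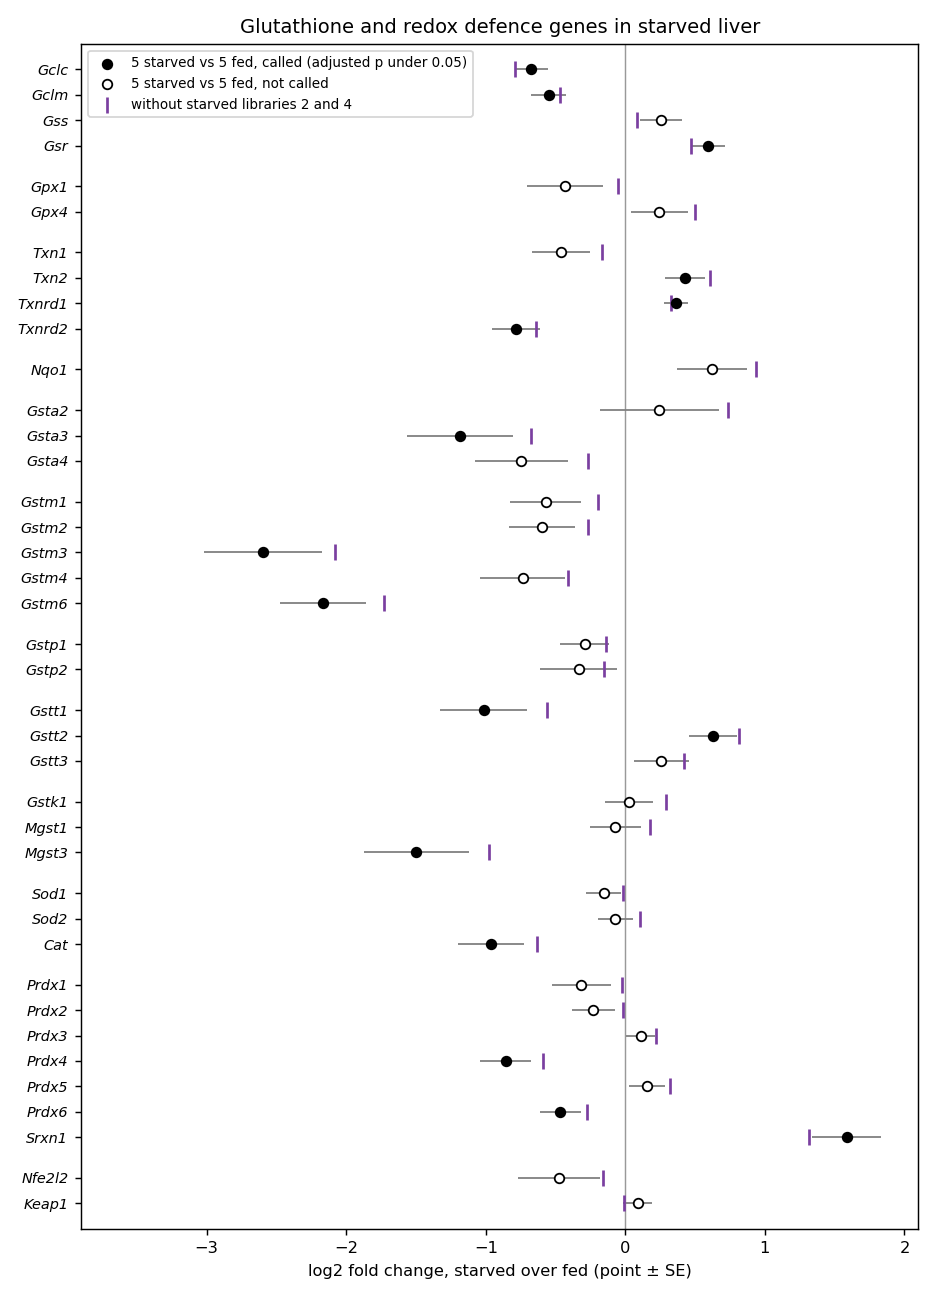
Log2 fold change, starved over fed, of the 39 tested members, grouped by role; circles are the estimates from 5 starved and 5 fed libraries with bars of 1 standard error, filled where the adjusted p is under 0.05, and vertical ticks are estimates without starved libraries 2 and 4. Gstm3 at -2.59 and Gstm6 at -2.17 lie farthest to the left and Srxn1 at 1.58 farthest to the right, and for most members the ticks lie to the right of the circles.

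Both subunits of glutamate-cysteine ligase, the rate-limiting enzyme of glutathione synthesis, fell. The catalytic subunit Gclc had 105, 118, 89.5, 131 and 103 CPM in starved libraries 1 to 5, against 191, 161, 195, 161 and 163 CPM in fed libraries 1 to 5 (log2 fold change of -0.67 ± 0.12 (SE), adjusted p = 0.00142). The modifier subunit Gclm had 85.4, 58.1, 85.6, 96.5 and 89.0 CPM in starved libraries 1 to 5, against 128, 116, 125, 116 and 121 CPM in fed libraries 1 to 5 (log2 fold change of -0.55 ± 0.13 (SE), adjusted p = 0.00592). In both genes every starved library lay below every fed library, with the lowest Gclm value in starved library 2, and the log2 fold changes without starved libraries 2 and 4 were -0.79 and -0.47. Gclm shares 296 exon bases with a transcript on the opposite strand, and the strand setting of the counting is not given in the sources used here. Glutathione synthetase (Gss), which adds glycine in the second step, averaged 86.1 ± 15.8 CPM in starved livers and 72.2 ± 11.6 CPM in fed livers (SD, n = 5 each) and did not pass the test (adjusted p = 0.193). Its exons overlap Acss2 and antisense transcripts on the other strand over 1102 bases.

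Glutathione reductase (Gsr), which regenerates glutathione from its oxidised form, rose. It had 96.1, 102, 104, 138 and 88.2 CPM in starved libraries 1 to 5, against 73.8, 70.9, 71.5, 69.6 and 64.9 CPM in fed libraries 1 to 5 (log2 fold change of 0.59 ± 0.12 (SE), adjusted p = 0.00289). The groups did not overlap, the highest value being that of starved library 4, and without starved libraries 2 and 4 the log2 fold change was 0.47.

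Neither glutathione peroxidase among the members passed the test. Gpx1, the abundant cytosolic peroxidase, had 2793, 941, 2677, 1274 and 1896 CPM in starved libraries 1 to 5, against 3088, 2201, 2411, 2413 and 2835 CPM in fed libraries 1 to 5 (log2 fold change of -0.43 ± 0.27 (SE), adjusted p = 0.221). Its lowest values were in starved libraries 2 and 4, and without them the log2 fold change was -0.056. Gpx4, which reduces lipid hydroperoxides in membranes, ranged over 281 to 572 CPM in starved libraries, against 278 to 461 CPM in fed libraries (log2 fold change of 0.24 ± 0.20 (SE), adjusted p = 0.36). Without starved libraries 2 and 4 its log2 fold change was 0.50 and it was called (adjusted p = 0.0342). Of the 50-base windows in its transcripts, 34.7% also occur in another gene's transcripts, mainly in a Gpx4 pseudogene.

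The cytosolic and mitochondrial thioredoxin reductases moved in opposite directions. Cytosolic thioredoxin reductase (Txnrd1) had 140.3, 145, 130.4, 151 and 132 CPM in starved libraries 1 to 5, against 108, 113, 107, 113 and 102 CPM in fed libraries 1 to 5 (log2 fold change of 0.36 ± 0.086 (SE), adjusted p = 0.0066). All starved values lay above all fed values. The mitochondrial reductase Txnrd2 had 12.3, 8.44, 9.10, 11.2 and 16.2 CPM in starved libraries 1 to 5, against 16.7, 18.9, 21.3, 20.6 and 20.9 CPM in fed libraries 1 to 5 (log2 fold change of -0.78 ± 0.17 (SE), adjusted p = 0.004). Here all starved values lay below all fed values, with starved library 5 nearest to the fed range. The log2 fold changes without starved libraries 2 and 4 were 0.32 for Txnrd1 and -0.64 for Txnrd2. With library totals alone Txnrd1 was not called, at a log2 fold change of 0.20.

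Of the thioredoxins, the small proteins that these reductases reduce, the mitochondrial one rose. Txn2 had 55.4, 33.6, 45.5, 42.1 and 53.7 CPM in starved libraries 1 to 5, against 33.3, 30.8, 31.0, 34.5 and 41.5 CPM in fed libraries 1 to 5 (log2 fold change of 0.43 ± 0.15 (SE), adjusted p = 0.0352). Starved library 2 lay below fed libraries 4 and 5, and so within the fed range, while the other starved libraries lay above every fed library. The call was lost in 7 of the 10 analyses that left out 1 library (all but those without starved library 2, starved library 4 and fed library 5), and without starved libraries 2 and 4 the log2 fold change was 0.61. Cytosolic thioredoxin (Txn1) had 223, 87.6, 200.5, 145 and 183 CPM in starved libraries 1 to 5, against 271, 225, 222, 213 and 223 CPM in fed libraries 1 to 5 and did not pass the test (log2 fold change of -0.46 ± 0.21 (SE), adjusted p = 0.1). Starved library 2 was the lowest and fed library 1 the highest.

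Within-library ratios of read counts compare 2 genes without regard to library scaling. In all, 6 such ratios were tested by an exact two-sided permutation test over the 10 libraries, in which the smallest possible p is 0.00794, with p-values adjusted over the 6 ratios. The log2 ratio of Txn2 to Txn1 was -1.82 ± 0.29 in starved livers and -2.76 ± 0.23 in fed livers (SD, n = 5 each; difference 0.94, exact p = 0.00794, adjusted p = 0.0159). The log2 ratio of Txnrd2 to Txnrd1 was -3.64 ± 0.40 in starved livers and -2.47 ± 0.17 in fed livers (difference -1.18, exact p = 0.00794, adjusted p = 0.0159). Txnrd1 and Txnrd2 each separated the groups, in opposite directions. The separation of their ratio and its smallest possible p therefore follow from those values and are no further evidence. The mitochondrial to cytosolic ratio was thus higher in starved livers for the thioredoxins and lower for their reductases, with no overlap between the groups. The ratio of mitochondrial Prdx3 to cytosolic Prdx1 had a log2 value of -2.60 ± 0.39 in starved livers and -3.08 ± 0.12 in fed livers (difference 0.48, exact p = 0.00794, adjusted p = 0.0159). The highest Prdx3 to Prdx1 ratio was in starved library 2, and without starved libraries 2 and 4 the difference was 0.23. Without these libraries the differences were 0.78 for Txn2 to Txn1 and -0.99 for Txnrd2 to Txnrd1. The smallest adjusted p among the ratios was then 0.0536 by exact permutation. It belonged to ratios already at the smallest unadjusted p that 3 libraries against 5 allow. Mitochondrial Sod2 over cytosolic Sod1 differed by 0.075 (exact p = 0.437, adjusted p = 0.524), and Gclm over Gclc by 0.11 (exact p = 0.571), neither of which passed the test. The Gclm over Gclc difference was 0.26 without starved library 2 and then passed (exact permutation, adjusted p = 0.0476). It was 0.32 when starved library 4 was left out as well (exact permutation, adjusted p = 0.0536). The log2 ratio of Keap1 to Nfe2l2 was 0.73 ± 0.91 in starved livers and 0.018 ± 0.11 in fed livers (difference 0.71, exact p = 0.0556, adjusted p = 0.0833). Its largest value, 2.23, was that of starved library 2.

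**Figure D2:**
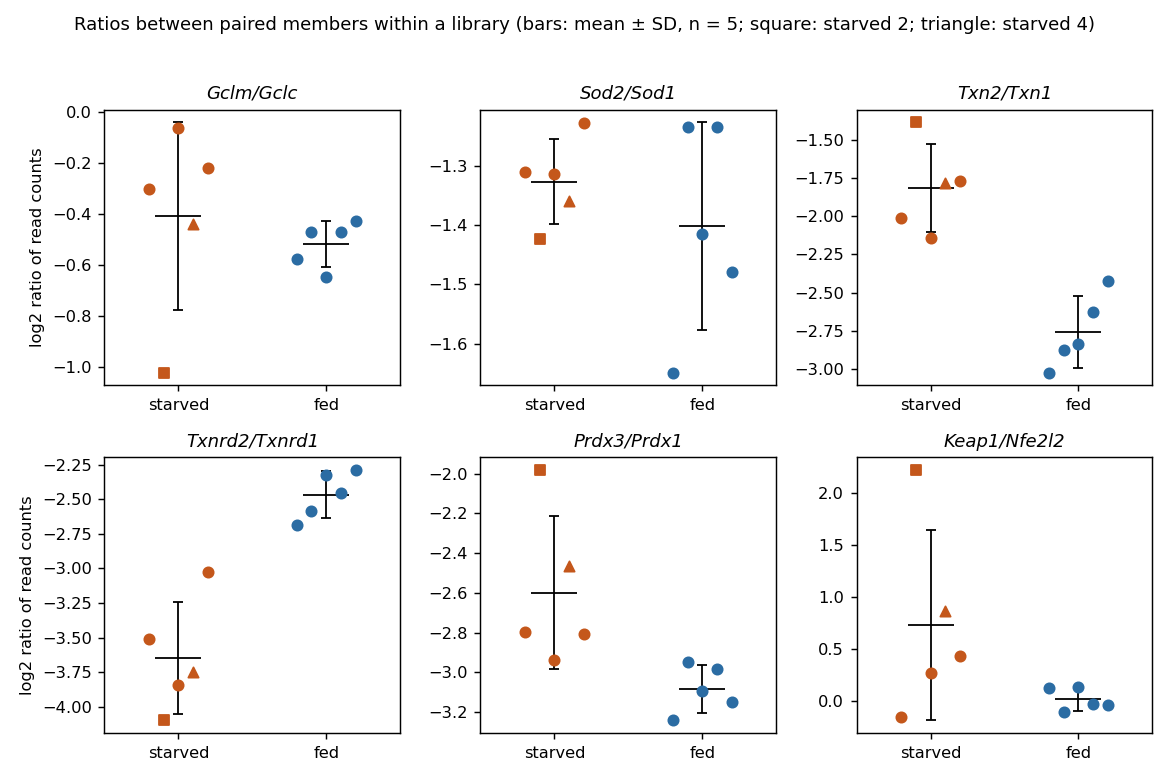
Log2 ratios of read counts between paired members in each library, starved left of fed, with the mean and SD of 5 libraries; squares mark starved library 2 and triangles starved library 4. The starved and fed points do not overlap for Txn2/Txn1, Txnrd2/Txnrd1 and Prdx3/Prdx1, and starved library 2 lies highest for Keap1/Nfe2l2 at 2.23.

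NAD(P)H quinone reductase (Nqo1), a classical NRF2 target, had 42.9, 13.2, 33.0, 26.3 and 35.1 CPM in starved libraries 1 to 5, against 21.0, 16.7, 17.3, 24.8 and 18.2 CPM in fed libraries 1 to 5 (log2 fold change of 0.62 ± 0.25 (SE), adjusted p = 0.0706). It did not pass the test with all libraries, starved library 2 lying below every fed library and the other starved libraries above every fed library. With starved libraries 2 and 4 left out its log2 fold change was 0.94 and it was called (adjusted p = 0.000222). DESeq2's Wald test also called it (adjusted p = 0.0462).

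Among the 14 cytosolic GST members, which conjugate glutathione to electrophiles, 13 were tested, of which 4 fell (20.0% of all tested genes fell) and 1 rose (18.6% of all tested genes rose), with a median log2 fold change of -0.60. When starved libraries 2 and 4 were left out, 5 GSTs fell and 1 rose, and the median was -0.27. Their summed level had a median of 1966 CPM in starved livers (893 to 2478) and 3102 CPM in fed livers (2589.8 to 3747). The alpha class summed to 309 to 1328 CPM in starved and 1484 to 2321 CPM in fed libraries, and the mu class to 189 to 477 CPM in starved and 511 to 652 CPM in fed libraries. In both classes the sums did not overlap between the groups, where 16.7% of all tested genes taken singly were lower without overlap. Most of the alpha-class sum was Gsta3, at 284 to 1246 CPM in starved and 1419 to 2210 CPM in fed libraries, so that sum largely restates Gsta3. The pi class summed to 33.4 to 69.9 CPM in starved and 61.1 to 85.5 CPM in fed libraries, and the theta class to 333 to 646 CPM in starved and 509 to 700.0 CPM in fed libraries, both with overlap.

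The largest fold changes among the 39 tested members were in the mu class, whose genes lie in a cluster on chromosome 3 (GENCODE M21, GRCm38, positions 107895821 to 108044894, 149.074 kb) in the order Gstm5, Gstm7, Gstm6, Gstm3, Gstm2, Gstm1 and Gstm4. Gstm3 had 4.05, 1.07, 3.39, 1.48 and 7.42 CPM in starved libraries 1 to 5, against 24.6, 16.3, 16.4, 27.6 and 19.2 CPM in fed libraries 1 to 5 (log2 fold change of -2.59 ± 0.42 (SE), adjusted p = 0.000841), a level 6.04-fold lower in starved livers. Gstm6 had 27.8, 12.0, 27.7, 10.2 and 35.1 CPM in starved libraries 1 to 5, against 115, 95.5, 92.0, 113 and 90.9 CPM in fed libraries 1 to 5 (log2 fold change of -2.17 ± 0.31 (SE), adjusted p = 0.000393), 4.49-fold lower. In both genes the groups were far apart, the starved libraries 2 and 4 being lowest, and without these libraries the log2 fold changes were -2.08 and -1.73. Of the 50-base windows in Gstm3 transcripts, 28.8% occur in other genes as well, which makes its level uncertain.

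The other mu-class members did not pass the test. Gstm1, the most abundant of the class per kb of exon, ranged over 142 to 381 CPM in starved libraries, against 344 to 438 CPM in fed libraries (log2 fold change of -0.57 ± 0.25 (SE), adjusted p = 0.0936). Gstm2 ranged over 19.1 to 49.7 CPM in starved libraries, against 47.9 to 71.0 CPM in fed libraries (log2 fold change of -0.60 ± 0.24 (SE), adjusted p = 0.0635). It was called with library totals alone, with limma-voom, with a replicate block (log2 fold change of -0.66, edgeR adjusted p = 0.0379) and without starved library 1. Gstm4 ranged over 1.98 to 9.97 CPM in starved libraries, against 10.9 to 12.9 CPM in fed libraries (log2 fold change of -0.74 ± 0.31 (SE), adjusted p = 0.0747) and its groups did not overlap. The log2 fold changes with starved libraries 2 and 4 left out were -0.20 for Gstm1, -0.27 for Gstm2 and -0.41 for Gstm4, and only Gstm4 of these 3 was then called (adjusted p = 0.0166). The cluster genes outside the 40 members, Gstm5 and Gstm7, fell, with log2 fold changes of -1.11 ± 0.18 (adjusted p = 0.000903) and -0.72 ± 0.17 (adjusted p = 0.00656).

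In the alpha class, Gsta3, the main alpha-class GST measured here, fell. It had 1246, 284, 951, 355 and 1177 CPM in starved libraries 1 to 5, against 2172, 1514, 1419, 2209.7 and 1800.0 CPM in fed libraries 1 to 5 (log2 fold change of -1.18 ± 0.38 (SE), adjusted p = 0.028). The groups did not overlap, but starved libraries 2 and 4 were far below the other starved libraries. Without both the log2 fold change was -0.68 (adjusted p = 0.00811), and the call was lost without starved library 4 alone or without fed library 1, 4 or 5. Gsta3 lies on chromosome 1 (positions 21240589 to 21265661), apart from Gsta4, Gsta1 and Gsta2, which lie together on chromosome 9. Gsta4, active towards the lipid peroxidation product hydroxynonenal, averaged 42.8 ± 22.5 CPM in starved livers and 71.8 ± 12.0 CPM in fed livers (SD, n = 5 each; adjusted p = 0.0959). Gsta2, an inducible alpha-class GST, averaged 12.8 ± 7.05 CPM in starved livers and 10.8 ± 5.85 CPM in fed livers (adjusted p = 0.675). Neither passed the test, and Gsta2 shares 49.8% and Gsta1 90.5% of their 50-base windows with other genes.

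The theta class went both ways within a cluster of 4 genes on the minus strand of chromosome 10 (positions 75774115 to 75837424). Gstt1 had 258, 72.1, 222, 96.8 and 252 CPM in starved libraries 1 to 5, against 366, 383, 333, 396 and 344 CPM in fed libraries 1 to 5 (log2 fold change of -1.02 ± 0.31 (SE), adjusted p = 0.0238). All starved values lay below all fed values, with starved libraries 2 and 4 far the lowest. Gstt2 had 155, 82.5, 137, 116 and 116 CPM in starved libraries 1 to 5, against 92.1, 69.7, 61.2, 92.6 and 76.7 CPM in fed libraries 1 to 5 (log2 fold change of 0.63 ± 0.17 (SE), adjusted p = 0.014). It rose, although starved library 2 lay within the fed range. Leaving out starved libraries 2 and 4 gave log2 fold changes of -0.56 for Gstt1 and 0.81 for Gstt2. The Gstt1 call was lost without starved library 4 alone, and the Gstt2 call was lost with library totals alone, at 0.48. Gstt3, next to Gstt1 at the edge of the cluster, averaged 194 ± 47.1 CPM in starved livers and 163 ± 34.0 CPM in fed livers (SD, n = 5 each; adjusted p = 0.311).

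The pi-class genes Gstp1 and Gstp2, whose products are more abundant in male than in female mouse liver, did not pass the test. Gstp1 ranged over 32.4 to 67.2 CPM in starved libraries, against 59.4 to 82.1 CPM in fed libraries (log2 fold change of -0.29 ± 0.18 (SE), adjusted p = 0.207) and Gstp2 over 1.02 to 2.72 CPM in starved libraries, against 1.66 to 3.35 CPM in fed libraries (log2 fold change of -0.34 ± 0.27 (SE), adjusted p = 0.349). The 2 genes are neighbours on chromosome 19 and share 33.7% and 54.3% of their 50-base windows with other genes, so their separate values are uncertain.

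Of the kappa and membrane-bound GSTs, Mgst3, a microsomal enzyme with peroxidase activity, fell. It had 20.5, 4.97, 14.9, 4.05 and 13.7 CPM in starved libraries 1 to 5, against 38.3, 27.8, 29.1, 37.5 and 31.8 CPM in fed libraries 1 to 5 (log2 fold change of -1.50 ± 0.38 (SE), adjusted p = 0.00883). The groups did not overlap, and without starved libraries 2 and 4, the lowest, the log2 fold change was -0.98. Microsomal Mgst1, one of the most abundant members, averaged 3342 ± 913 CPM in starved livers and 3518 ± 279.5 CPM in fed livers (SD, n = 5 each; log2 fold change -0.074 ± 0.18, adjusted p = 0.774). Mitochondrial and peroxisomal Gstk1 averaged 112 ± 30.8 CPM in starved livers and 110.2 ± 6.73 CPM in fed livers (log2 fold change 0.026 ± 0.17, adjusted p = 0.915). The estimates of both changed sign under some of the settings, and without starved libraries 2 and 4 they were 0.17 for Mgst1 and 0.29 for Gstk1, where Gstk1 was called (adjusted p = 0.0381).

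**Figure D3:**
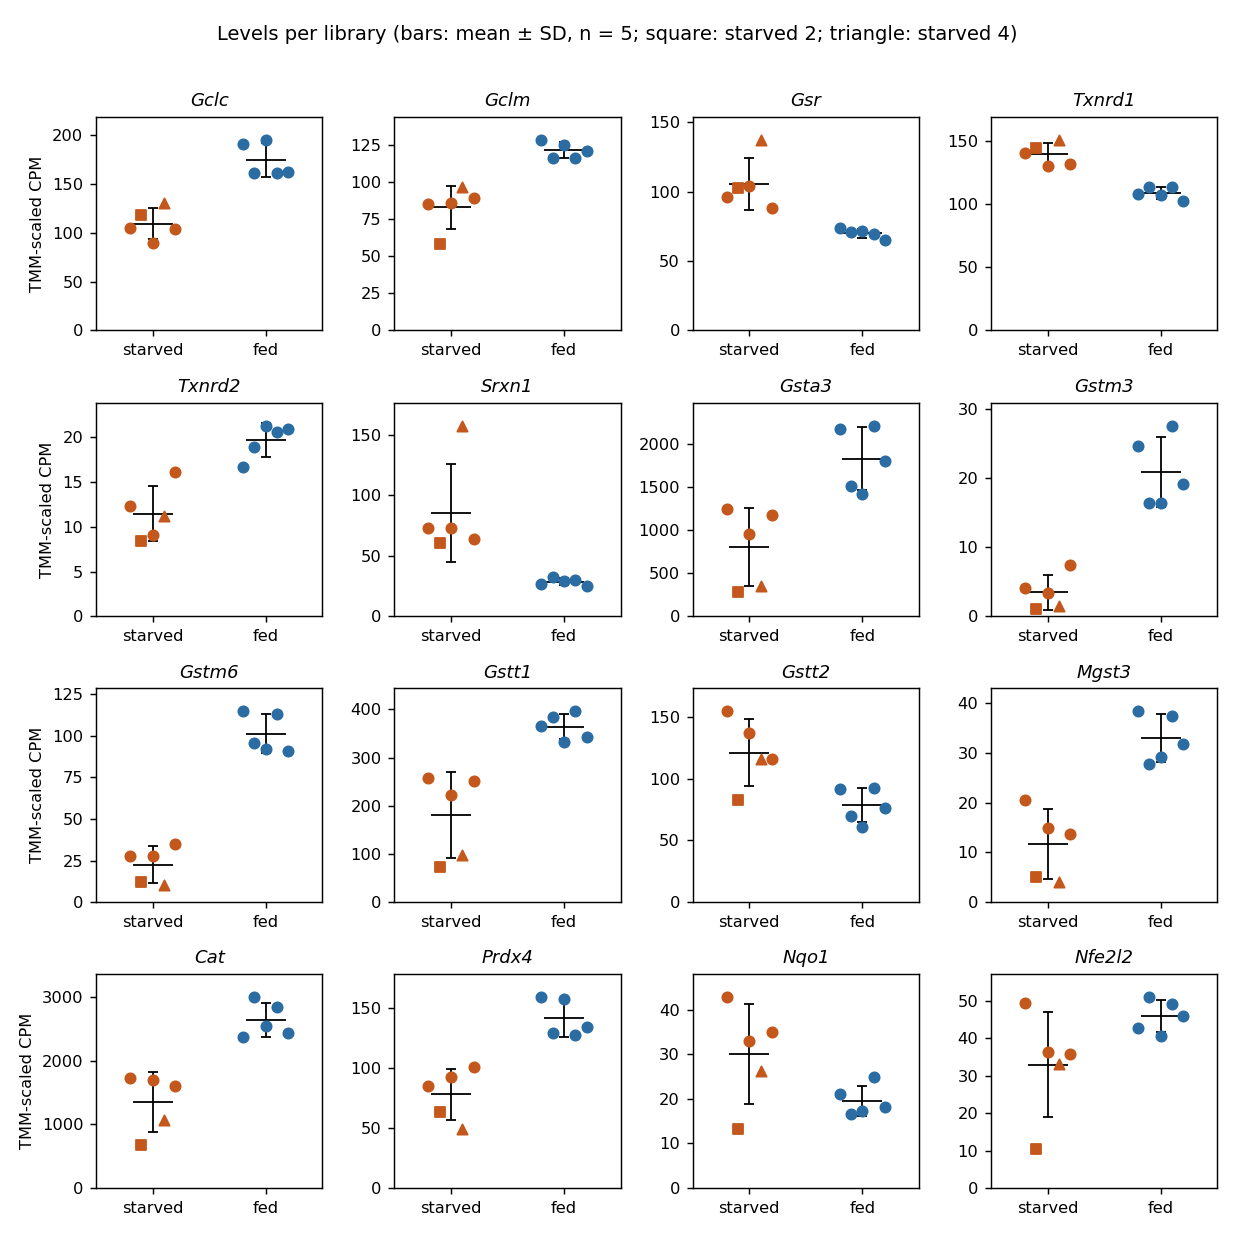
Levels in TMM-scaled CPM of 16 members in each library, starved left of fed, with the mean and SD of 5 libraries; squares mark starved library 2 and triangles starved library 4. Gstm3 lies between 1.07 and 7.42 CPM in starved libraries and between 16.3 and 27.6 CPM in fed libraries, and Srxn1 between 60.3 and 158 CPM in starved libraries and between 24.9 and 32.1 CPM in fed libraries.

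Catalase (Cat), the peroxisomal enzyme that breaks down hydrogen peroxide, fell. It had 1722, 667, 1698, 1066 and 1608 CPM in starved libraries 1 to 5, against 2376, 2999.7, 2540.0, 2839.7 and 2432 CPM in fed libraries 1 to 5 (log2 fold change of -0.96 ± 0.24 (SE), adjusted p = 0.00767). The groups did not overlap, and without starved libraries 2 and 4, the lowest, the log2 fold change was -0.63 (adjusted p = 0.00164). Red blood cells also contain catalase, and the red cell marker Alas2 averaged 13.5 ± 6.84 CPM in starved livers and 35.0 ± 6.51 CPM in fed livers (SD, n = 5 each; adjusted p = 0.0027). Its part in the catalase value was not tested. The superoxide dismutases, which convert superoxide to hydrogen peroxide, did not pass the test. Cytosolic Sod1 averaged 632 ± 86.8 CPM in starved livers and 704 ± 75.4 CPM in fed livers (log2 fold change of -0.16 ± 0.13 (SE), adjusted p = 0.345). Mitochondrial Sod2 averaged 253 ± 41.5 CPM in starved livers and 266 ± 20.6 CPM in fed livers (log2 fold change of -0.073 ± 0.13 (SE), adjusted p = 0.673), and its estimate was 0.11 without starved libraries 2 and 4.

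Of the 6 peroxiredoxins, thiol peroxidases that consume hydrogen peroxide, Prdx4 and Prdx6 fell and the others did not pass the test. Prdx4, the peroxiredoxin of the endoplasmic reticulum, had 84.8, 63.0, 92.3, 49.4 and 101 CPM in starved libraries 1 to 5, against 159, 129, 158, 127 and 134 CPM in fed libraries 1 to 5 (log2 fold change of -0.86 ± 0.18 (SE), adjusted p = 0.00351). Prdx6, an enzyme that also acts on phospholipid hydroperoxides, had 538, 405, 444, 292 and 472 CPM in starved libraries 1 to 5, against 600.4, 619, 567, 608 and 574 CPM in fed libraries 1 to 5 (log2 fold change of -0.46 ± 0.15 (SE), adjusted p = 0.0263). In both genes the groups did not overlap, with starved library 4 lowest. Without starved libraries 2 and 4 the log2 fold changes were -0.59 for Prdx4 and -0.27 for Prdx6 (adjusted p = 0.0499 for Prdx6). The Prdx6 call was lost without fed library 2 or fed library 4. Prdx1, the most abundant peroxiredoxin per kb, ranged over 615 to 1533 CPM in starved libraries, against 1327 to 1704 CPM in fed libraries (log2 fold change of -0.31 ± 0.21 (SE), adjusted p = 0.26). Cytosolic Prdx2 ranged over 79.6 to 131 CPM in starved libraries, against 104 to 132 CPM in fed libraries (log2 fold change of -0.23 ± 0.15 (SE), adjusted p = 0.246). Mitochondrial Prdx3 averaged 187 ± 22.9 CPM in starved livers and 173 ± 6.27 CPM in fed livers (adjusted p = 0.414) and Prdx5, found in mitochondria and peroxisomes, 177 ± 32.1 CPM in starved livers and 159 ± 13.1 CPM in fed livers (adjusted p = 0.367). The log2 fold changes of Prdx3 and Prdx5, 0.11 and 0.15, turned to -0.042 and -0.0010 with library totals alone. Exons on the opposite strand overlap Prdx2 over 350 bases and Prdx5 over 409 bases, which makes both values uncertain.

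Sulfiredoxin (Srxn1), which repairs overoxidised peroxiredoxins and is a known NRF2 target, showed the largest increase among the 39 tested members. It had 73.0, 60.3, 72.5, 158 and 64.0 CPM in starved libraries 1 to 5, against 26.9, 32.1, 28.9, 29.6 and 24.9 CPM in fed libraries 1 to 5 (log2 fold change of 1.58 ± 0.25 (SE), adjusted p = 0.000624). Every starved library lay above every fed library, and starved library 4 lay above all other starved libraries. The mean was 3.0-fold higher in starved livers, and without starved libraries 2 and 4 the log2 fold change was 1.31 (adjusted p = 1.41e-06). Srxn1 lies on the plus strand of chromosome 2 (positions 152105516 to 152111376), and none of its 50-base windows occurred in another gene.

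The regulators themselves did not pass the test. Nfe2l2 had 49.5, 10.5, 36.3, 33.0 and 35.7 CPM in starved libraries 1 to 5, against 42.7, 51.0, 40.6, 49.2 and 46.0 CPM in fed libraries 1 to 5 (log2 fold change of -0.47 ± 0.29 (SE), adjusted p = 0.215). Starved library 2 was the lowest and starved library 1 lay within the fed range, and without starved libraries 2 and 4 the log2 fold change was -0.16. Keap1 averaged 49.2 ± 6.63 CPM in starved livers and 46.3 ± 1.58 CPM in fed livers (SD, n = 5 each; log2 fold change 0.088 ± 0.10, adjusted p = 0.522), with an estimate of -0.069 under library totals alone and of -0.0068 without starved libraries 2 and 4. NRF2 is regulated largely at the protein level, which these RNA counts do not measure. Keap1 overlaps an antisense transcript over 510 exon bases.

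Levels of different genes were compared per kb of annotated exon. Gpx1 and Mgst1 had the highest levels in both groups. Gpx1 had 1329.8 ± 571 CPM per kb in starved livers and 1797 ± 251 CPM per kb in fed livers, and Mgst1 had 1660.4 ± 454 CPM per kb in starved livers and 1747 ± 139 CPM per kb in fed livers (SD, n = 5 each). In both groups the means of these neighbours lay closer together than either SD. Within libraries, Mgst1 lay above Gpx1 per kb in every starved library, while the order was mixed in fed libraries, and this order was not tested. Cat followed with 517 ± 179 CPM per kb in starved livers and 1009 ± 103 CPM per kb in fed livers, and Prdx1 with 389 ± 123 CPM per kb in starved livers and 484 ± 45.9 CPM per kb in fed livers. In fed livers Gsta3 came next with 419.6 CPM per kb, and in starved livers Gpx4 took that place with 247 CPM per kb while Gsta3 stood at 185. Srxn1 stood at 30.3 CPM per kb in starved livers and 10.1 in fed livers.

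**Figure D4:**
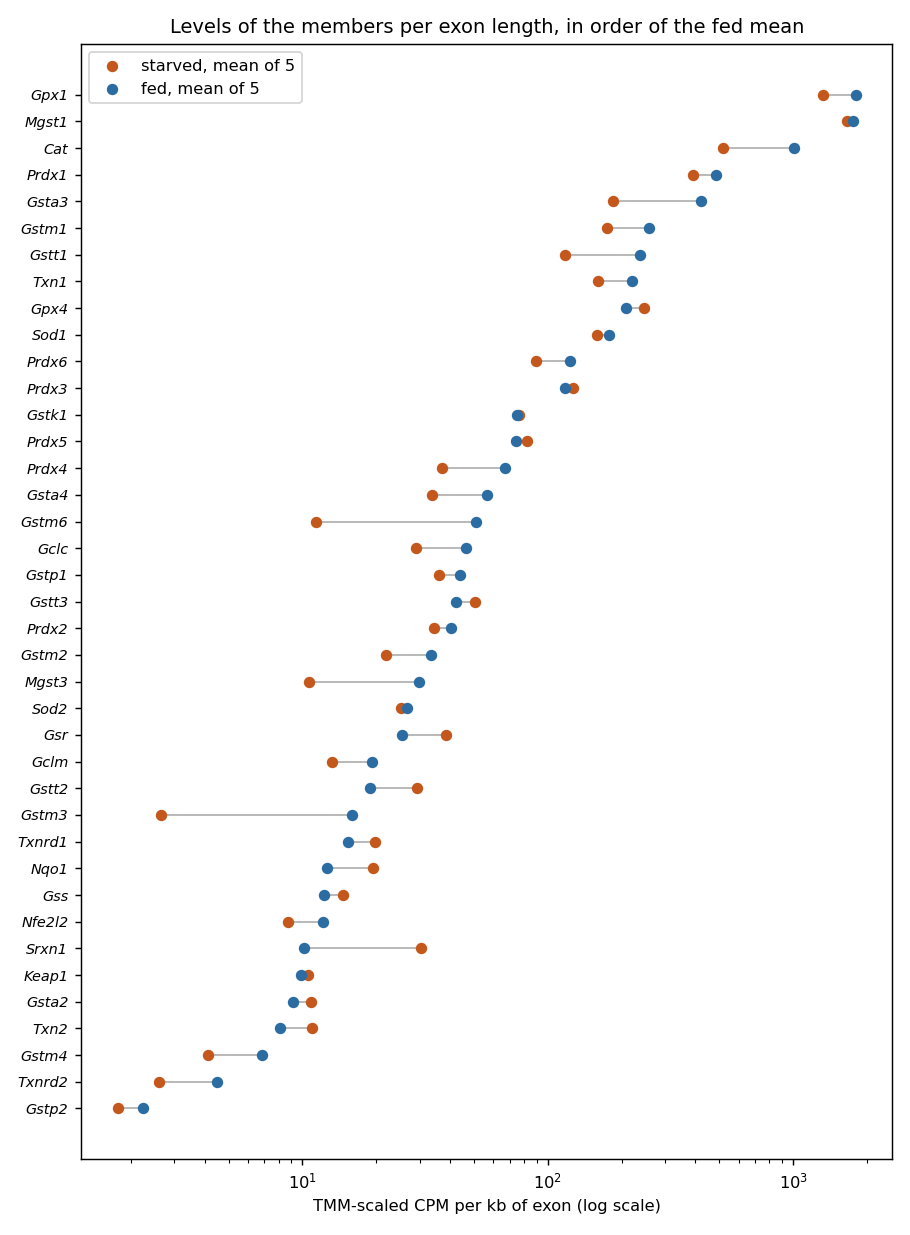
Mean level of the members per kb of exon on a log axis, starved and fed, ordered by the fed mean; each point is the mean of 5 libraries. Gpx1 and Mgst1 stand at the top at 1329.8 and 1660.4 CPM per kb in starved livers and 1797 and 1747 CPM per kb in fed livers, and the widest gaps between the groups are those of Gstm3 and Gstm6.

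Genes that supply and degrade glutathione outside the 40 members were read from a list of 22 genes, of which 19 were tested, 8 rose and 3 fell, with a median log2 fold change of 0.43, where 18.6% of all tested genes rose and 20.0% fell. Cth, the cystathionine gamma-lyase that yields cysteine for glutathione synthesis, had 1256, 1767, 1262, 1486 and 1109.9 CPM in starved libraries 1 to 5, against 419, 307, 365, 429 and 424 CPM in fed libraries 1 to 5 (log2 fold change of 1.82 ± 0.16 (SE), adjusted p = 2.06e-05). Mat1a, the liver enzyme that makes S-adenosylmethionine upstream of this route, averaged 16677 ± 4451 CPM in starved livers and 4294 ± 547 CPM in fed livers (log2 fold change of 1.96 ± 0.20 (SE), adjusted p = 5.50e-05). Starved and fed libraries did not overlap in either gene. Dpep1, a dipeptidase that cleaves cysteinylglycine, rose at a low level (3.80 ± 0.764 CPM in starved livers and 0.795 ± 0.219 CPM in fed livers; log2 fold change of 2.26 ± 0.22 (SE), adjusted p = 4.42e-05). Csad, which directs cysteine-derived sulfinate to taurine, fell, at 90.5 ± 23.7 CPM in starved livers and 224 ± 78.4 CPM in fed livers (log2 fold change of -1.30 ± 0.27 (SE), adjusted p = 0.00293). The amino acid transporter Slc1a4 and the aminopeptidase Anpep also fell, with log2 fold changes of -1.36 ± 0.32 (adjusted p = 0.00672) and -0.79 ± 0.17 (adjusted p = 0.00403).

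A list for NADPH supply and related reactions held 16 genes, of which 13 were tested. Of these, 6 fell and 1 rose, where 20.0% of all tested genes fell and 18.6% rose. The median log2 fold change was -0.44 (-0.27 without starved libraries 2 and 4). Idh1, the cytosolic NADP-dependent isocitrate dehydrogenase, had 297, 90.5, 252, 139 and 269.7 CPM in starved libraries 1 to 5, against 662, 705, 674, 713 and 606 CPM in fed libraries 1 to 5 (log2 fold change of -1.68 ± 0.28 (SE), adjusted p = 0.000914). Its groups did not overlap, and the log2 fold change was -1.28 without starved libraries 2 and 4. The malic enzymes Me1 and Me2 fell, with log2 fold changes of -0.74 ± 0.20 (adjusted p = 0.0121) and -0.77 ± 0.16 (adjusted p = 0.0034). Mthfd1l, of mitochondrial folate metabolism, rose, at 2.09 ± 0.939 CPM in starved livers and 0.803 ± 0.298 CPM in fed livers (log2 fold change of 1.39 ± 0.38 (SE), adjusted p = 0.0131).

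Of 31 other NRF2 targets and partners, 30 were tested, and 5 rose and 5 fell, with a median of -0.017, where 18.6% of all tested genes rose and 20.0% fell. Hmox1, which degrades heme, had 41.1, 35.5, 30.0, 16.0 and 19.5 CPM in starved libraries 1 to 5, against 11.7, 11.1, 10.4, 17.2 and 11.6 CPM in fed libraries 1 to 5 (log2 fold change of 1.20 ± 0.25 (SE), adjusted p = 0.0034). The groups overlapped in starved library 4 and fed library 4. Abcc3, an exporter of conjugates, averaged 359 ± 71.8 CPM in starved livers and 156 ± 34.4 CPM in fed livers (log2 fold change of 1.20 ± 0.19 (SE), adjusted p = 0.000668). Mafk, a small MAF partner of NRF2, had a log2 fold change of 1.09 ± 0.33 (adjusted p = 0.023) that was 0.49 without starved libraries 2 and 4 and 0.66 without starved library 2 alone. Its call was lost without fed library 1 or fed library 5 and with limma-voom. The pentose phosphate enzymes Tkt and Taldo1 fell, with log2 fold changes of -0.99 ± 0.12 (adjusted p = 0.000132) and -0.64 ± 0.13 (adjusted p = 0.00268), as did the prostaglandin reductase Ptgr1 at -1.90 ± 0.31 (adjusted p = 0.000864).

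Of 31 other GSTs, glutaredoxins, peroxidases and thioredoxin-related genes, 27 were tested, 9 rose and 6 fell, with a median of 0.035, where 18.6% of all tested genes rose and 20.0% fell. Txnip, the thioredoxin-binding protein, had 99.6, 1033, 91.8, 465 and 244 CPM in starved libraries 1 to 5, against 65.8, 67.8, 66.8, 83.2 and 70.1 CPM in fed libraries 1 to 5 (log2 fold change of 2.45 ± 0.58 (SE), adjusted p = 0.0065). Sesn1, a stress-responsive sestrin, had 21.6, 546, 26.1, 128 and 43.4 CPM in starved libraries 1 to 5, against 20.1, 19.2, 21.6, 22.9 and 19.2 CPM in fed libraries 1 to 5 (log2 fold change of 2.89 ± 0.80 (SE), adjusted p = 0.0144). An antisense transcript overlaps Txnip over 606 exon bases. Both genes were highest in starved library 2, followed by starved library 4, and without these libraries their log2 fold changes were 1.05 and 0.57. Without starved library 2 alone the value for Sesn1 was 1.42, and limma-voom did not call Sesn1. Gpx3, the secreted glutathione peroxidase, averaged 11.3 ± 5.43 CPM in starved livers and 2.09 ± 0.661 CPM in fed livers (log2 fold change of 2.44 ± 0.34 (SE), adjusted p = 0.000352). Glo1, the glyoxalase that uses glutathione to detoxify methylglyoxal, fell, at 179 ± 66.4 CPM in starved livers and 361 ± 26.7 CPM in fed livers (log2 fold change of -1.01 ± 0.24 (SE), adjusted p = 0.00611), or -0.66 on the log2 scale without starved libraries 2 and 4.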

How the data were processed

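RNA was measured in 5 starved and 5 fed mouse livers, with libraries made from total RNA by a strand-marking kit, per the labels' protocols. Each deposited file holds whole-number read counts per gene for 1 library, not normalised. The build is mm10, and the tools listed are HTSeq, TopHat2 2.0.0, Bowtie2 2.0.0, edgeR 3.6.4 and CASAVA 1.8.2, per the submitters' processing notes. The annotation, the read length and the strand setting of the counting step were not given in the sources used here, so genes overlapping others on the opposite strand are uncertain. Rows that name no gene stayed out of all totals. Of all tallied reads, 42.9% ± 3.68 in starved and 47.1% ± 0.780 in fed libraries (SD, n = 5 each) aligned to more than 1 place, and 20.1% ± 2.99 in starved and 18.1% ± 2.46 in fed libraries lay in no gene.

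In R 4.3.3, edgeR 4.0.16 (filterByExpr, TMM scaling, quasi-likelihood test, Benjamini-Hochberg adjustment) tested 12796 of 23420 genes in 1 fit of both groups without covariates, and standard errors were derived from its F statistic. Alternatives were DESeq2 size factors, upper-quartile factors, library totals alone, DESeq2 1.42.0, limma-voom (limma 3.58.1), no low-count filter, a minimum of 1 CPM in 5 libraries, a replicate block, each library left out in turn, and starved libraries 2 and 4 left out together. Ratios used a pseudocount of 1 read as an alternative. Genes sharing reads were assessed by 50-base windows shared between transcripts of GENCODE M21 (GRCm38, the same build as mm10), which also gave positions and exon lengths. Protein sequences were not used here.

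The members and the 7 related and 11 marker lists were chosen with earlier results of these data known. All 40 members are named, and an item that the rule for listed genes selects is not reported here. Of each related list, up to 3 called genes in each direction reaching 1 CPM in the higher group are named, by size of change, and of each marker list up to 2, or the most abundant where none passed. Libraries of 1 group differed by more than counting noise (chi-square per degree of freedom 11.2 to 263 in starved and 21.4 to 83.2 in fed pairs), so none was counted as a duplicate. P-values measure the spread between these mice.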

Additional observations from a re-analysis of the deposited data

Results flagged for a closer look

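In 12 of 202 groups of 5 libraries looked at, the highest library lay far from the others by Dixon's criterion at the 95% level. For an outlier at either end, chance alone meets this criterion in about 1 in 20 groups (10.1 groups), and less often for the highest library alone. Among the members, sulfiredoxin (Srxn1) had 158 CPM in starved library 4, and 60.3 to 73.0 CPM in the other starved libraries. Cytosolic thioredoxin (Txn1) had 271 CPM in fed library 1 and 213 to 225 CPM in the other fed libraries, and Prdx5 had 181 CPM in fed library 1 and 147 to 157 CPM in the others.

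Among the listed genes, starved library 2 was highest for Sesn1 (546 CPM, others 21.6 to 128 CPM), Vimp (76.5 CPM, others 64.0 to 67.0 CPM) and Sepn1 (1.87 CPM, others 1.13 to 1.30 CPM). Starved library 5 was highest for Selenbp2 (6.03 CPM, others 0.542 to 1.75 CPM). Fed library 4 was highest for Txnip (83.2 CPM, others 65.8 to 70.1 CPM), Hmox1 (17.2 CPM, others 10.4 to 11.7 CPM) and the B cell marker Cd79b (2.17 CPM, others 1.29 to 1.46 CPM). The adipocyte marker Adipoq had 1.13 CPM in starved library 1 (others 0 to 0.0580 CPM) and 3.02 CPM in fed library 1 (others 0.0344 to 0.331 CPM).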

How the results depend on the processing

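Of the 16 called members, 10 were called under all 19 alternatives and none changed sign. The other 6, Txn2, Txnrd1, Gsta3, Gstt1, Gstt2 and Prdx6, lost the call under at least 1, and 9 uncalled members gained one. Leaving out 1 library gave 4 to 6 members that rose and 9 to 13 that fell, and 1868 to 2766 of all genes that rose and 2043 to 2847 that fell. With library totals alone 2 members and 1490 of all genes rose, and without starved libraries 2 and 4 together 9 members rose. Near-zero estimates changed sign: with library totals alone they were -0.12 for Gstk1, -0.042 for Prdx3, -0.0010 for Prdx5 and -0.069 for Keap1, and Gstk1 was -0.017 with limma-voom. Without starved libraries 2 and 4 Mgst1 was 0.17, Sod2 0.11 and Keap1 -0.0068. With 1 library left out, log2 fold changes ranged over -0.077 to 0.15 for Gstk1, -0.20 to 0.054 for Mgst1 and -0.13 to 0.0088 for Sod2. The log2 ratio differences then ranged over 0.34 to 0.93 for Keap1/Nfe2l2 (passing without starved library 1, adjusted p = 0.0238 by exact permutation) and 0.024 to 0.26 for Gclm/Gclc (passing without starved library 2, adjusted p = 0.0476). Without starved libraries 2 and 4 the differences of 0.78 (Txn2/Txn1), -0.99 (Txnrd2/Txnrd1) and 0.23 (Prdx3/Prdx1) no longer passed (exact permutation, adjusted p = 0.0536), each at the smallest unadjusted p that 3 libraries against 5 allow. The causes of these shifts were not tested.

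The labels speak of pairs of mice without saying what pairs them. Same-numbered starved and fed libraries deviated together weakly or not at all, with correlations of -0.045 to 0.20. Of the 5 correlations 1 was over 0.1, that of starved and fed library 1 at 0.20. Starved library 3 and fed library 1, which do not share a number, correlated almost as much, at 0.17. In all, 2 of 5 starved libraries correlated best with their own number. The numbers were not treated as pairs in the main fit, and whether number 1 shares a factor was not tested. The replicate block gave 5 members that rose and 12 that fell (Gstm2 in addition), and 2029 and 2381 of all genes, with Gstk1 at -0.016 and the calls of Sesn1, Mthfd1l and Sephs1 lost.

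Depth limits the precision of Gsta1 (0 to 6 reads per library), and counts of genes with close copies (Gsta2, Gstp1, Gstp2, Gstm3, Gpx4) depend on how shared reads were treated.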

Other observations

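Lists of genes with male-biased or female-biased expression in mouse liver were also read, where 18.6% of all tested genes rose and 20.0% fell. Of 12 male-biased genes, 10 were tested, and 6 fell and none rose, with a median log2 fold change of -1.40 (with starved libraries 2 and 4 left out, 1 rose and 6 fell). The organic anion transporter Slco1a1 had 11.0, 8.39, 17.8, 7.23 and 21.2 CPM in starved libraries 1 to 5, against 174, 262, 322, 165 and 163 CPM in fed libraries 1 to 5 (log2 fold change of -4.05 ± 0.34 (SE), adjusted p = 2.02e-05). Its groups did not overlap. The steroid dehydrogenase Hsd3b5 averaged 0.131 ± 0.109 CPM in starved livers and 5.75 ± 2.79 CPM in fed livers (SD, n = 5 each; log2 fold change of -5.52 ± 0.53 (SE), adjusted p = 3.97e-05). Of 13 female-biased genes, all tested, 4 rose and 3 fell, with a median of -0.10 (0.26 with starved libraries 2 and 4 left out). Cyp2b10 averaged 616 ± 439 CPM in starved livers and 24.6 ± 10.4 CPM in fed livers (log2 fold change of 4.65 ± 0.51 (SE), adjusted p = 9.44e-05) and Cyp17a1 rose by 1.97 ± 0.15 on the log2 scale (adjusted p = 1.29e-05), while Acot3, Cyp2a4 and Cyp2b13 had log2 fold changes of -1.66 ± 0.42, -1.51 ± 0.36 and -1.03 ± 0.25 (adjusted p = 0.00939, 0.00677 and 0.00753).

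Of 24 genes listed for selenoprotein synthesis, other selenoproteins and selenium-binding proteins, 19 were tested. Of these, 3 rose and 6 fell, with a median of 0.021, where 18.6% of all tested genes rose and 20.0% fell. Selenbp2, a selenium-binding protein also on the male-biased list, averaged 2.14 ± 2.22 CPM in starved livers and 27.6 ± 6.76 CPM in fed livers (log2 fold change of -3.74 ± 0.51 (SE), adjusted p = 0.000316). The deiodinase Dio1 averaged 156 ± 81.1 CPM in starved livers and 333 ± 43.1 CPM in fed livers (log2 fold change of -1.10 ± 0.34 (SE), adjusted p = 0.0232), or -0.62 on the log2 scale when starved libraries 2 and 4 were left out, and its call was lost without starved library 4 or fed library 2. Vimp, of the endoplasmic reticulum, averaged 67.7 ± 5.14 CPM in starved livers and 45.2 ± 7.94 CPM in fed livers (log2 fold change of 0.58 ± 0.12 (SE), adjusted p = 0.00363). Sepn1 had a log2 fold change of -0.68 ± 0.19 (adjusted p = 0.0149), and the synthesis factors Secisbp2 and Sephs1 had 0.55 ± 0.16 (adjusted p = 0.0165) and 0.27 ± 0.087 (adjusted p = 0.0305). The Sephs1 call was lost in 6 of the 10 analyses that left out 1 library (highest adjusted p = 0.0839), with library totals alone, without the low-count filter and with the replicate block, and the Secisbp2 call was lost with library totals alone (log2 fold change of 0.40).

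Marker lists of other hepatic cells moved as follows, where 18.6% of all tested genes rose and 20.0% fell. Of 12 pericentral hepatocyte markers 1 rose and 4 fell, with Rgn and Lect2 at log2 fold changes of -2.29 ± 0.46 (adjusted p = 0.00256) and -1.61 ± 0.34 (adjusted p = 0.00374). Of 9 tested periportal markers 4 rose and 3 fell. Pck1 and Hal, named for the size of their change, rose, at 1.34 ± 0.33 (adjusted p = 0.00853) and 1.33 ± 0.12 (adjusted p = 2.81e-05). The 3 that fell are not named, so these values do not stand for the list. Of 6 tested hepatocyte markers 1 rose and 2 fell. Of 10 endothelial markers 1 rose (Lyve1, 1.74 ± 0.21, adjusted p = 0.000169) and 5 fell (among them Clec4g, -0.57 ± 0.14, adjusted p = 0.00905). Their sums reached up to 326 CPM in starved and at least 328 CPM in fed libraries. Of 9 stellate cell and fibroblast markers 2 rose and 3 fell, Col3a1 having a log2 fold change of -2.32 ± 0.23 (adjusted p = 5.22e-05). Of 6 tested cholangiocyte markers 1 fell (Spp1, -0.96 ± 0.29, adjusted p = 0.0199), and of 7 tested T, NK and B cell markers 1 fell. The 1 tested gene of the adipocyte and pancreas list did not pass the test. Emr1 and Cd5l of the Kupffer cell list had log2 fold changes of -1.51 ± 0.23 (adjusted p = 0.00055) and -1.29 ± 0.33 (adjusted p = 0.01), and Retnlg and S100a9 of the neutrophil list 3.12 ± 0.66 (adjusted p = 0.00365) and 2.04 ± 0.48 (adjusted p = 0.00654). The part of these cell types in the member values was not tested.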
